A study of Homo sapiens with 12 samples.

Results

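The genes described here encode the 8 subunits of TRiC, the chaperonin of the human cytosol: TCP1, CCT2, CCT3, CCT4, CCT5, CCT6A, CCT7 and CCT8. The rule that chose them uses their names and no measured value, and they were found by matching Ensembl gene identifiers to GENCODE symbols. All 8 were listed in every one of the 11 tables of unique molecular identifiers (UMIs, the random tags that mark each captured molecule), among 32945 genes listed in the series. The questions the design allows are how evenly the subunit mRNAs are measured, how they differ between assays, cell lines and genotypes, and how they vary between single cells.

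TRiC is a double-ring machine in which each subunit holds a fixed place in each ring, so that an assembled complex contains all of them in equal number. With ATP it closes around newly made proteins, above all actin and tubulin, and many proteins with WD40 repeats. The prefoldin complex hands it unfolded clients, and phosducin-like proteins act as its cofactors.

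The study presented LAST-seq, in which a T7 promoter is attached to the poly(A) end of each mRNA and the RNA itself is amplified by transcription in vitro. HEK293T, a human embryonic kidney line, was measured without treatment. LAST-seq was run in 2 libraries of 10 single cells, 1 of 10 wells of 15-pg extracted RNA and 1 of 10 wells of cell lysate. CEL-seq2 (reverse transcription followed by T7 amplification) was run in 2 libraries of 10 single cells and 1 lysate library. SMART-seq (full-length cDNA, read counts without UMIs) was run in 1 cell and 2 lysate samples. The labels do not say how the lysate was made. eHAP1, a haploid human line, was measured by LAST-seq in wild-type cells (WT) and in 1 clone with a Cas9 knockout of SCC4 (SCC4KO), the cohesin loading subunit whose gene symbol is MAU2. Both eHAP1 lines were clones, single cells were sorted in G1, and each genotype was deposited as 1 sample of 2 batches, with 73 and 75 WT cells and 77 and 76 SCC4KO cells in the tables. Per the paper's methods, haploid cells were kept with 10-Deacetylbaccatin-III upon subcloning to hold them haploid. They were grown in IMDM medium, and HEK293T in DMEM. HEK293T cells were not gated on the cell cycle. Well barcodes recur by design: both LAST-seq HEK293T cell libraries carry the same 10, and the eHAP1 batches share 70 to 75 of theirs.

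The UMIs of genes ranged from 62782 to 195230 per HEK293T well and from 18004 to 925612 per eHAP1 cell. MAU2 had 326 and 507 UMIs in the WT batches (44.3 and 41.2 CPM, counts scaled to 1000000 gene UMIs) and 59 and 169 in the SCC4KO batches (9.18 and 14.5 CPM). All 6 wells labelled as SMART-seq single cells were near-identical to 6 wells of the second SMART-seq lysate sample, and 3 pairs within the first lysate sample were near-identical too, so the SMART-seq samples are given apart below, and the results that rest on those wells are also given from wells that are not repeated. The 2 batches of an eHAP1 genotype lay closer together than separate libraries: the log2 ratio of the first batch to the second was between -0.04 and -0.01 for the members in WT and between -0.14 and 0.02 in SCC4KO, against -0.29 to 0.50 between the LAST-seq HEK293T libraries. Among genes with 5000 UMIs or more, the squared difference between batches had a median of 0.079 times what counting error gives in SCC4KO and 2.07 times in WT, against 29.1 times between the LAST-seq HEK293T libraries. Since each genotype is 1 deposited sample of 1 clone, its batches were not used as replicates, and comparisons between genotypes carry no p-value. The markers of HEK293T were mixed: NEFL, a neurofilament gene, had 57 UMIs in the 20 LAST-seq HEK293T cells, 0 in WT and 220 in SCC4KO, while PAX2, a kidney transcription factor, had 2 in HEK293T and 307 in WT.

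LAST-seq and CEL-seq2 both read the 3′ end of the mRNA, and the ends of the subunit transcripts differ. The last 30 bases of the canonical GENCODE 44 transcripts on GRCh38 are shown for the member counted most by LAST-seq (CCT3), the one counted least (CCT5), and the one with no poly(A) signal in that window (CCT4). They are written 5′ to 3′ in the sense of the mRNA. The capitals mark AATAAA or ATTAAA, the hexamers that direct cleavage and polyadenylation, searched on the transcript strand only.
CCT3, chr1:156308968-156308997, minus strand: gcttccgatgATTAAAtctaagtcatttga
CCT5, chr5:10266360-10266389, plus strand: atttatttgtAATAAAcctcttccacgtga
CCT4, chr2:61868085-61868114, minus strand: cttacttaaacaaaagggtttcttaactaa
The CCT3 and CCT5 signals both start 20 bases from the annotated end. Of the 8 members 7 held at least 1 of these hexamers in the window (CCT2 held both), as did 69.6% of 20046 canonical protein-coding transcripts.

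The ends also differ in what lies on the other strand. The last 500 bases of CCT5, at the 3′ end of the gene at chr5:10249929-10266389, are overlapped to 100% by exons of a long noncoding RNA (ENSG00000271980) on the opposite strand. TCP1 (chr6:159778498-159789703) is overlapped over 67.8% by ACAT2, an acetyl-CoA acetyltransferase gene, and CCT4 (chr2:61868085-61888671) over 30.6% by another noncoding RNA (ENSG00000236498). The other 5 members, CCT2 (chr12:69585426-69601570), CCT3 (chr1:156308968-156367873), CCT6A (chr7:56051685-56063989), CCT7 (chr2:73233420-73253021) and CCT8 (chr21:29055805-29073797), have no exon of another gene on the opposite strand there. The partners had few UMIs: in the 2 LAST-seq HEK293T libraries, ENSG00000271980 had 1 and 2, ENSG00000236498 6 and 6, and ACAT2 16 and 16. Whether the authors' counting used strand is not given in the sources used here, and an opposite-strand read in such an overlap cannot be assigned without it.

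CCT3, the gamma subunit, was the most counted member of every LAST-seq library. In the first LAST-seq library its UMIs per HEK293T cell were 102 at the lowest, 167 at the median and 219 at the highest. In the second the values were 136, 202 and 264. It took 36.6% (exact binomial 95% interval 35.1 to 38.0) and 41.6% (40.2 to 43.0) of the UMIs of the 8 members, against the 12.5% that equal counts would give. All intervals here cover counting error only. The share was 42.8% in 15-pg RNA, where no cell was sorted, and 46.1% in lysate.

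CCT5, the epsilon subunit, which can form rings by itself in vitro and whose variants cause a sensory neuropathy, was the least counted member of every UMI library. Its UMIs per cell were 2, 8 and 12 (lowest, median and highest) in the first LAST-seq library and 4, 8.5 and 15 in the second. Its share of the members' UMIs was 1.57% (1.22 to 1.98) and 1.85% (1.48 to 2.27). The ranges of CCT3 and CCT5 over cells did not come near each other.

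The other 6 members lay between. CCT2, the beta subunit, had 15.2% and 10.6% in the 2 libraries, and CCT6A, the zeta subunit, whose paralogue CCT6B is a testis gene, had 13.5% and 12.7%. TCP1, the alpha subunit that gave the complex its first name, had 9.27% and 8.37%, CCT7 (eta) 9.20% and 8.37%, CCT4 (delta) 7.95% and 8.37%, and CCT8 (theta) 6.72% and 8.09%. The order of these last 4 changed between the libraries. CCT2 had the widest gap between the libraries, 0.50 on the log2 scale of CPM.

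**Figure D1:**
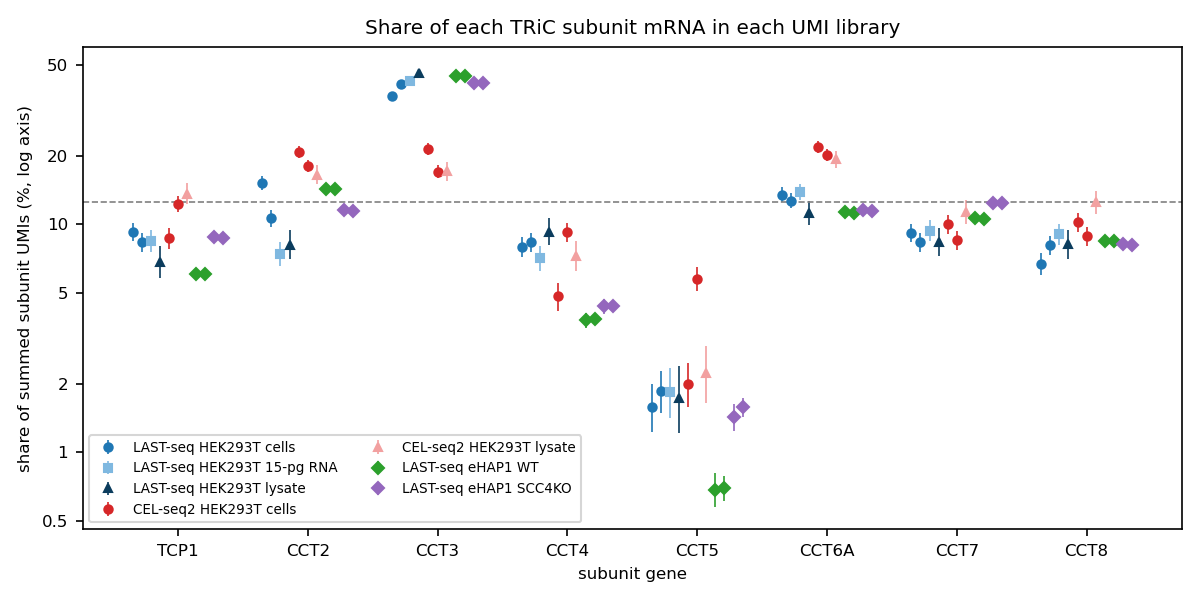
Share of the members' UMIs taken by each TRiC subunit gene (vertical axis, percent on a log scale) in each UMI library, with exact binomial 95% intervals as bars and the dashed line at the 12.5% of equal counts. CCT3 stands at 36.6% to 46.1% in the LAST-seq HEK293T libraries and at 17.0% to 21.4% in CEL-seq2, and CCT5 is lowest in all libraries.

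The highest member was counted 23.3 and 22.5 times as often as the lowest in the LAST-seq HEK293T libraries, 23.4 times in 15-pg RNA and 26.7 times in lysate. CCT5 carried most of that span: without it the mean over the 2 cell libraries fell from 22.9 (SD 0.526, n = 2) to 5.29. In CEL-seq2 the top member was CCT6A, and the span was 11.1 in the first cell library, 3.50 in the second and 8.71 in lysate. SMART-seq reads, divided by transcript length, were nearly even: the first lysate sample, with shares from 10.6% for CCT5 to 14.1% for CCT4, had a span of 1.33, or 1.35 without its near-identical wells. The span was 1.56 in the second lysate sample and 1.71 without the wells repeated as cells. It was 2.42 in the wells labelled as cells, all of which are near-identical to wells of that lysate sample. UMIs count an mRNA once whatever its length, so these SMART-seq values are per kilobase and the UMI values are not.

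For each member the UMI level was set against the SMART-seq level per kilobase in the 6 wells labelled as cells, the ones near-identical to lysate wells, as a log2 ratio centred on the median of 6096 genes. CCT5 stood at -3.87 and -3.67 in the LAST-seq libraries, at percentile 4.31 and 4.69 of those genes, and at -4.23 and -2.25 in CEL-seq2. CCT4 stood at -2.03 and -1.99 in LAST-seq, CCT8 at -1.74 and -1.51, and TCP1 at -1.54 and -1.72. CCT3 alone was above the median of genes in LAST-seq, at 1.12 and 1.27, and it was below it in CEL-seq2, at -0.35 and -0.24. CCT6A stood at -0.10 and -0.22. Over all genes, overlap was counted with exons of any other gene on either strand, not the opposite strand alone. In the first LAST-seq library the median was 0.13 for 5132 genes with no such exon in the last 500 bases. It was -0.82 for 657 with part of them covered, and -1.01 for 307 covered over 80% or more. The spread was wide, with quartiles of -3.5 and 0.52 in this last class. In the CEL-seq2 libraries the partly covered genes stood at -0.762 and -0.679. Those covered over 80% or more stood at -0.729 and -0.615, no lower than the partly covered genes. Against the first SMART-seq lysate sample without its repeated wells, over 7539 genes, CCT5 stood at -3.66 and -3.52 in LAST-seq and CCT3 at 0.83 and 0.92, while CCT6A moved down to -0.86 and -1.04 and CCT7 to -1.17 and -1.40. CCT5, TCP1 and CCT4 belong to the covered genes, but CCT8, with no overlap, was close to TCP1, and the part of the overlap in these values was not tested.

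**Figure D2:**
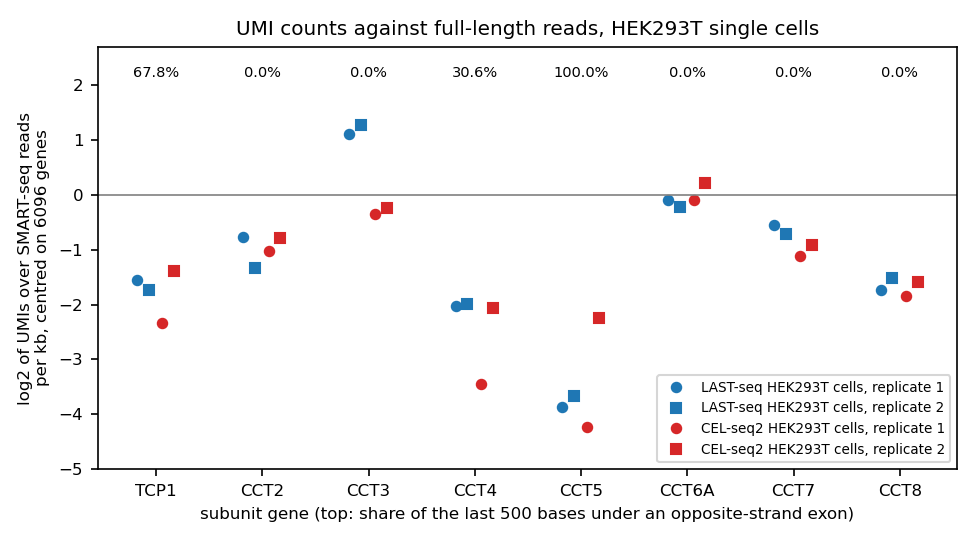
UMI level over SMART-seq reads per kilobase for each member (vertical axis, log2, centred on the median of 6096 genes) in the LAST-seq and CEL-seq2 HEK293T cell libraries, with the share of the last 500 bases under an opposite-strand exon printed above. CCT5 is lowest in every library, at -2.25 or below, and CCT3 is above 0 only in LAST-seq.

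Annotated pseudogenes of the members could take reads from them. The 13 that were searched held 0.56% to 2.16% as many UMIs as the members in the UMI libraries. These 13 were filtered by name and chromosome and are not shown to be all that are annotated. Reads per UMI, the number of sequencing reads behind each counted molecule, also differed between members. In the first LAST-seq library they ran from 3.21 for CCT7 and 3.48 for CCT3 to 7.96 for CCT2, against a median of 4.33 over all genes. In the second they ran from 2.93 for CCT7 and 2.96 for CCT3 to 6.25 for CCT2, against 4.11. CCT3, the most counted member, had the second fewest reads per molecule, and CCT5, at 4.10 and 3.90, was close to the gene median. A single well of the first library, with 28.03 reads per CCT2 UMI, raised the CCT2 value there, and the median over wells was 5.55.

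LAST-seq and CEL-seq2 were compared on the summed UMIs of the 2 cell libraries each. By their labels the 2 libraries of an assay held different spike-in mixes, RNAs added in known amounts. Spike-in mix and library therefore cannot be told apart within an assay. The LAST-seq libraries had 1127 and 1298 CPM of CCT3, the CEL-seq2 libraries 543 and 514. Over single cells it ranged from 956 to 1284 and from 1114 to 1455 with LAST-seq, and from 272 to 973 and from 186 to 739 with CEL-seq2, so the assays overlapped between 956 and 973 only. The log2 difference was 1.51 (SE 0.295), with an adjusted p of 0.00626 by edgeR's quasi-likelihood test with Benjamini-Hochberg adjustment. Of the 8 members 1 passed the test, where 26.2% of the 11261 genes tested did and 11.3% were higher in LAST-seq. The call was lost when either LAST-seq library was left out, with log2 differences of 1.60 and 1.48 and edgeR adjusted p of 0.0765 and 0.0992.

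No other member passed. The LAST-seq libraries had 48.5 and 57.7 CPM of CCT5 and the CEL-seq2 libraries 50.2 and 173.9, a log2 difference of -0.82 (SE 0.539, edgeR adjusted p 0.295), and its sign depended on which CEL-seq2 library was kept: without the first the difference was -1.51, without the second 0.50. The 2 CEL-seq2 libraries differed most in the members with overlapped ends, with log2 ratios of the first to the second of -1.79 for CCT5, -1.19 for CCT4 and -0.76 for TCP1. The other 5 members lay between -0.13 and 0.08. The part of the overlap in these ratios was not tested. Without the second CEL-seq2 library CCT4 (1.47) and TCP1 (0.74) passed beside CCT3, and without the first CCT5 passed beside CCT3. In those fits the single CEL-seq2 library is assumed to vary as little as the LAST-seq pair, which the ratios above go against, so these calls show no assay difference for the 3 genes. The log2 differences of CCT4 (0.61), CCT7 (0.41), TCP1 (0.17), CCT8 (0.11), CCT2 (-0.10) and CCT6A (-0.21) had SEs from 0.277 to 0.413 and edgeR adjusted p from 0.31 to 0.84. No source states that the libraries of an assay were separate cultures, so the p-values measure the spread between libraries, which may be technical.

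The partners of the complex were read in the same fit, in which 11.3% of genes were higher and 26.2% were called in either direction. Among prefoldin genes 3 of 6 were higher in LAST-seq (PFDN4 1.08, PFDN5 1.47, PFDN6 3.28 on the log2 scale) and none was lower. Among cofactors 1 of 3 tested was higher, TXNDC9, a thioredoxin-like regulator, at 2.27. Of 8 tested actin and tubulin genes 3 were higher, ACTG1, TUBA1C and TUBG1, and TUBA1A was lower. Of the 5 WD40 clients GNB1 (0.93) was higher and CDC20 (-1.18) lower, and of 4 tested tubulin folding cofactors TBCB (1.38) was higher. Neither gene of the mitochondrial chaperonin, HSPD1 and HSPE1, passed.

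Between genotypes each member has 1 sample a side, so values are given with exact Poisson 95% intervals that cover counting error only, and a change is called past 2-fold. The 8 members together had 2693 CPM in WT (2670 to 2716) and 2251 in SCC4KO (2229 to 2273), a log2 difference of -0.26. None of the 8 passed 2-fold, where 12.0% of 9782 genes did (6.34% higher, 5.63% lower). The median log2 ratio of the members was -0.15, and that of all genes was 0.03.

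The subunits did not differ between genotypes in the same direction. CCT5 was the furthest up, from 18.6 CPM in WT (16.7 to 20.6) to 34.2 in SCC4KO (31.6 to 37.0), a log2 ratio of 0.88. TCP1 went from 163.2 (157.6 to 168.9) to 197.5 (191 to 204), a ratio of 0.28. CCT2 was the furthest down, from 385 (377 to 394) to 259 (251 to 266), a ratio of -0.58. The intervals of these 3 did not meet, and neither did those of CCT3, CCT8 and CCT6A below. The share of all genes whose intervals do not meet was not computed, so these gaps do not set the members apart from other genes.

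CCT3 went from 1205 (1190 to 1221) to 941 (927 to 955), a log2 ratio of -0.36. CCT8 went from 229 (222 to 236) to 183 (177 to 189), a ratio of -0.32. CCT6A went from 303 (295 to 311) to 259 (252 to 266), a ratio of -0.23. CCT4, at 103 (98.4 to 107) and 98.4 (93.8 to 103), and CCT7, at 286 (278 to 293) and 279.9 (272 to 288), had intervals that met between genotypes. CCT5 and TCP1, the only members higher in SCC4KO, have the most overlapped 3′ ends (100% and 67.8%). CCT4, overlapped over 30.6%, had a ratio of -0.06. What part the overlap has in these ratios was not tested. The span from the highest to the lowest member was 65.5 and 64.6 in the WT batches and 29.2 and 26.6 in the SCC4KO batches, and without CCT5 the means were 11.7 and 9.55. Each value compares 1 clone with 1 clone, so clone and genotype cannot be told apart.

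None of 6 prefoldin genes passed 2-fold, with PFDN1 at 0.93 and PFDN2 at -0.70 as the ends of their range, and none of 3 cofactors, 5 WD40 clients or 4 tubulin folding cofactors did. Of 9 actin and tubulin genes 2 were lower by more than 2-fold, TUBB (-1.38) and TUBA1C (-1.09). Of the mitochondrial chaperonin genes, HSPD1 stood at 0.67 and HSPE1 at -0.21. Of 6 genes of S, G2 and M phase CDK1 was lower (-1.16), and what part the cell cycle has in the members' values was not tested.

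Between the lines, LAST-seq HEK293T was set against eHAP1 WT. CCT5 had 53.2 CPM in HEK293T (45.2 to 62.2, from 156 UMIs) and 18.6 in WT, a log2 ratio of 1.52. CCT4 had 253 and 103, a ratio of 1.30, and TCP1 273 and 163.2, a ratio of 0.74. CCT6A stood at 0.42, and CCT2, CCT3, CCT7 and CCT8 lay between -0.07 and 0.05. Thus 2 of 8 passed 2-fold, both higher in HEK293T, where 40.5% of 10789 genes did (23.6% higher, 16.9% lower). The 3 highest ratios belong to the 3 members with overlapped 3′ ends. This ratio was not computed over overlapped genes in general, and the part of the overlap in it was not tested.

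The sum of the members was 3103 CPM in HEK293T and 2693 in WT, 0.20 on the log2 scale, but with TMM scaling (edgeR's trimmed mean, which sets most genes level) it was -0.02 and the members' signs went from 7 higher and 1 lower to 4 and 4. TMM moved the median of all genes from 0.26 to 0.04. CCT5 (1.30) and CCT4 (1.08) stayed past 2-fold with it. By total UMIs, of 6 genes of S, G2 and M phase only CCNA2 passed 2-fold, higher in HEK293T (1.19). Their median log2 ratio was 0.27, near that of all genes, and MKI67 had 136 CPM in HEK293T and 153 in WT. Cell line, culture medium, the compound given to haploid cells, pool size, cycle gate, spike-in and library cannot be told apart in this comparison.

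**Figure D3:**
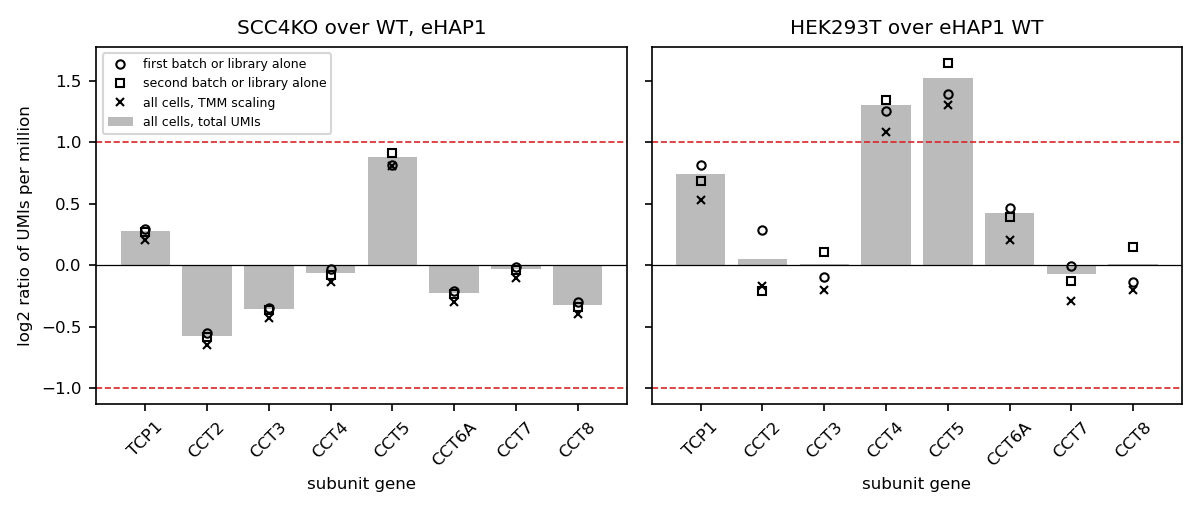
Log2 ratio of CPM for each member (bars, all cells), SCC4KO over WT on the left and HEK293T over eHAP1 WT on the right, with each batch or library alone and TMM scaling as points and dashed lines at 2-fold. CCT5 is highest in both panels, at 0.88 and 1.52, and on the left no bar reaches 2-fold.

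Noise between cells was measured as the excess CV2, the squared coefficient of variation of UMIs scaled to equal totals, less the part that counting molecules gives. CCT3, whose high count makes it the best measured, varied by a CV of 0.082 and 0.084 over the LAST-seq HEK293T cells, where counting gives 0.082 and 0.073. In CEL-seq2 its CV was 0.359 and 0.314. TCP1 (CV 0.305, counting 0.161) and CCT7 (0.260, counting 0.163) varied most above counting in the first LAST-seq library. The median excess of the 8 members was 0.0026 and 0.0029 in the LAST-seq cell libraries, against 0.0976 and 0.0944 with CEL-seq2, and the medians of all genes with a mean of at least 2 UMIs were 0.0051 and 0.0046 against 0.124 and 0.144. LAST-seq 15-pg RNA, which holds no differences between cells, and LAST-seq lysate both had a members' median of 0.0009, where all genes had -0.0015 and 0.0024. Whether lysate wells hold such differences is not given in the labels. CEL-seq2 lysate had 0.0244, where all genes had 0.0544. Single members ran from -0.0598 to 0.0223 in 15-pg RNA and from -0.0298 to 0.1671 in LAST-seq lysate. In the first LAST-seq cell library they ran from -0.0106 to 0.0674. These ranges are wider than the gap between the LAST-seq medians, so that gap shows no difference between cells and RNA wells.

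**Figure D4:**
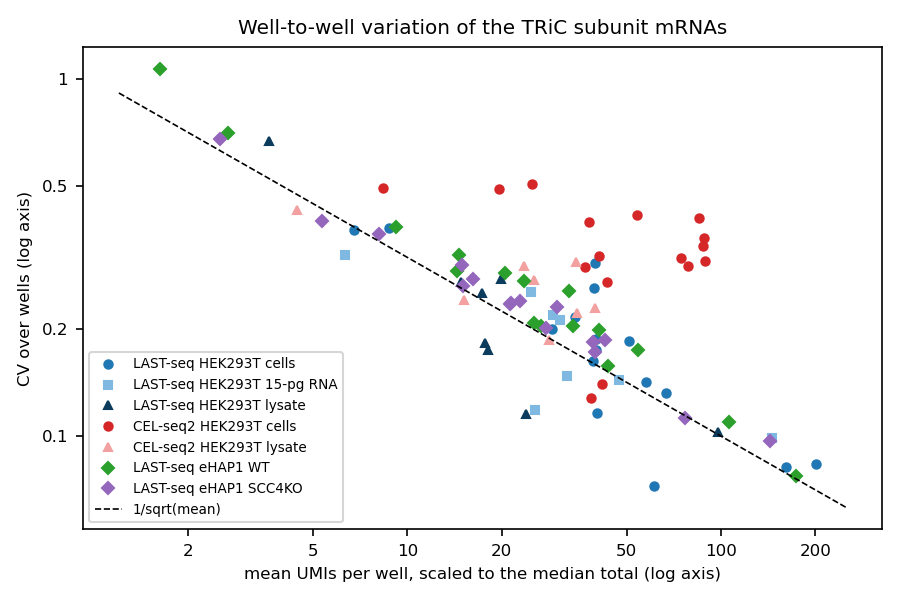
Coefficient of variation over wells (vertical axis, log) against the mean UMIs per well scaled to the median total (horizontal axis, log), with 1 point for each member in each UMI library and the dashed line at the inverse square root of the mean, the spread of counting at equal depth. Many LAST-seq points lie near the line, down to 0.082 for CCT3 in HEK293T cells, some lie above it, such as TCP1 at 0.305 in the first HEK293T cell library and CCT5 at 1.07 in WT, and most CEL-seq2 cell points lie above it, with CCT3 at 0.359 and 0.314.

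The sum of the 8 members behaved likewise. It ran from 2786 to 3316 and from 2830 to 3288 CPM over LAST-seq HEK293T cells, with CVs of 0.0563 and 0.0556 where counting gives 0.0494 and 0.047. Over CEL-seq2 cells it ran from 1593 to 3088 and from 1603 to 3753, with CVs of 0.209 and 0.219 and a counting part of 0.0515 and 0.0487. The share of the complex rose with depth in the CEL-seq2 cells, with Spearman's rho to the total UMIs of 0.758 and 0.649 over 10 wells each. The rho was 0.309 and 0.552 in LAST-seq cells, 0.661 in LAST-seq 15-pg RNA, 0.0545 in LAST-seq lysate and 0.188 in CEL-seq2 lysate. High values were thus not particular to CEL-seq2. The part of depth in the CEL-seq2 spread was not tested.

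In eHAP1 the members' spread lay nearer to counting error than in CEL-seq2. CCT3 had CVs of 0.110 and 0.077 in the WT batches and 0.113 and 0.097 in SCC4KO. Their median excess was 0.0215 and 0.0129 in WT, where all genes had 0.0213 and 0.0391, and 0.0066 and 0.005 in SCC4KO, where all genes had 0.0318 and 0.0248. Of the 8 members 4 and 7 lay below the all-gene median in the WT batches, and 7 and 8 in SCC4KO. The all-gene median depends on which genes are in it: over genes with a mean of at least 5 UMIs it was 0.012 and 0.0192 in WT, the first below the members' value, and 0.0121 and 0.0155 in SCC4KO, and the members below it were 4, 5, 6 and 6. CCT5 stood apart, with a CV of 1.07 and 0.704 in WT where counting gives 0.787 and 0.609. It was at 0 UMIs in 27 of 73 and 8 of 75 WT cells and in 14 of 77 and 1 of 76 SCC4KO cells, at median depths of 89891, 143765, 81736 and 152295 UMIs. No other member was at 0 in any eHAP1 cell, and at median counts of 1 to 5 UMIs per cell a 0 for CCT5 does not show that the mRNA was absent.

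Correlation between members over single cells was computed within each batch for the 28 pairs, on UMIs scaled to equal totals. The values are a description over cells that share a library. The median Spearman's rho was -0.0243 and -0.0144 in WT (73 and 75 cells) and 0.0113 and 0.0294 in SCC4KO (77 and 76 cells). All pairs of genes had medians of 0.0006 to 0.0046, with deciles near -0.15 and 0.15. Of 28 pairs 12 and 14 were above 0 in WT and 16 and 18 in SCC4KO. Of all gene pairs 50.2% and 51.5% were above 0 in the WT batches and 50.3% and 50.6% in SCC4KO. CCT2 with CCT8 was the only pair above 0 in all 4 batches, at 0.026 and 0.020 in WT and 0.065 and 0.153 in SCC4KO. Below 0 in all 4 were 3 pairs, TCP1 with CCT2 (-0.03, -0.233, -0.026 and -0.216), TCP1 with CCT6A (-0.077, -0.187, -0.121 and -0.15) and CCT5 with CCT8 (-0.058, -0.054, -0.051 and -0.017). The share of all gene pairs with the same sign in all 4 batches was not computed, so these pairs are not set apart from other genes.

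**Figure D5:**
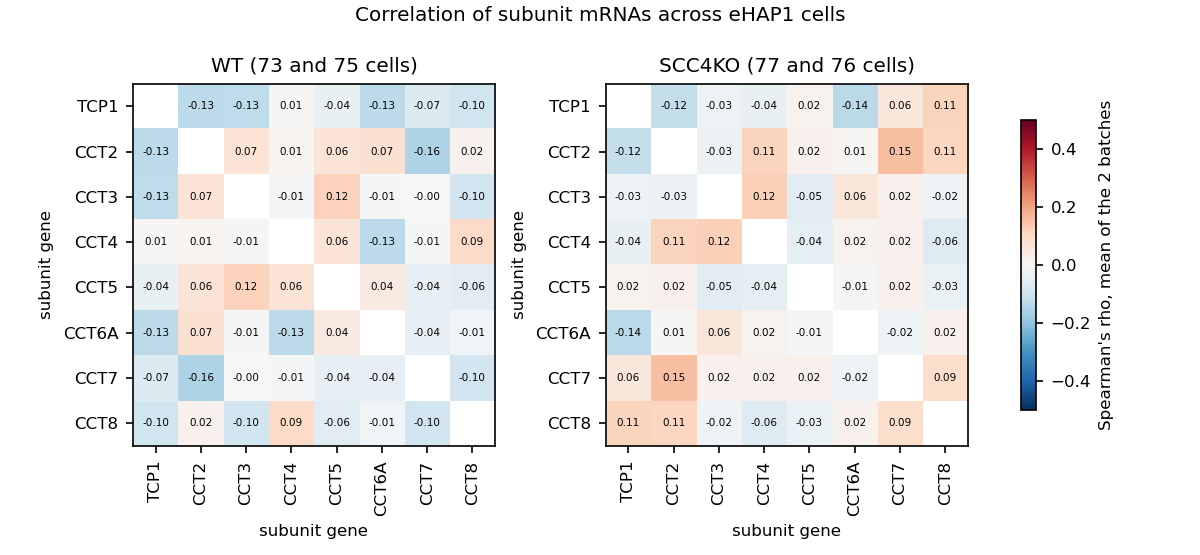
Spearman's rho between each pair of members over single eHAP1 cells, as the mean of the 2 batches, with WT on the left and SCC4KO on the right and red above 0, blue below. The values run from -0.16 (CCT2 with CCT7 in WT) to 0.15 (the same pair in SCC4KO), and neither panel holds a block of high values.

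Without scaling to equal totals the mean of the batch medians was 0.566 in WT and 0.446 in SCC4KO, where all genes had 0.32 and 0.183, so cells with more UMIs had more of every member. The UMIs of the complex followed the total with a rho of 0.975 and 0.981 in WT. The smallest shared variation that these cells could show was not computed. In the HEK293T libraries, of 10 wells each, the members' median rho ran from -0.115 in LAST-seq lysate to 0.321 in the second CEL-seq2 library.

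The 5 genes whose scaled level followed the members' sum most closely in WT, named by that ranking among 5943 genes, were MPV17 (mean rho over batches 0.337), UBE2M (0.308), UBFD1 (0.300), ONECUT2 (0.273) and NIBAN2 (0.261). In SCC4KO, which the ranking did not use, they stood at -0.137, 0.043, -0.034, -0.127 and 0.032. Genes taken from the top of a ranking tend to lie lower in data that did not rank them, and the medians over the 5943 genes were 0.013 in WT and 0.006 in SCC4KO. The gene lists around the complex had mean rho with the members' sum of -0.222 to 0.186 in single batches. Prefoldin stood at 0.003 and 0.089 in WT and -0.025 and 0.02 in SCC4KO. HSPD1 and HSPE1, with means of -0.09 and 0.174 in WT and -0.02 and 0.186 in SCC4KO, differed more between batches than between genotypes.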

How the data were processed

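The authors deposited UMI counts and read counts per gene and well. Per their methods and the labels, reads were demultiplexed with bcl2fastq 2.20, trimmed with cutadapt and counted over exons with zUMIs on GRCh38, UMIs being collapsed by identity and HEK293T reads subsampled to equal depth. A batch correction of the eHAP1 counts is described, and whether the deposited table holds it is not given in the sources used here. Spike-in counts were left out of totals. Levels are summed UMIs scaled to 1000000 gene UMIs (CPM). LAST-seq and CEL-seq2 were tested on library sums with edgeR 4.0.16 (TMM, quasi-likelihood, adjusted p under 0.05), with DESeq2 1.42.0 as an alternative, in R 4.3.3. For 2-fold calls a gene needed 1 UMI per cell on average on either side, and 0.5 UMIs were added. Noise and correlation used genes averaging 2 UMIs or more, except that every member was kept whatever its mean. In the first WT batch CCT5 averaged 1.84 UMIs per cell, under that cut. Without CCT5 the median Spearman's rho there was -0.0301 over 21 pairs, against -0.0243 over 28. Wells were sorted single cells and no doublet caller was run. The noise measure was tested on simulated data. The members and gene lists were chosen with earlier results of these data known. Named genes were all members, the partner lists and the 5 nearest genes by correlation in WT.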

Additional observations from a re-analysis of the deposited data

How the results depend on the processing

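The span from the highest to the lowest member in LAST-seq HEK293T cells (22.9) was 38.1 per kilobase of transcript, 23.8 from the mean of well shares, 18.4 from reads and 5.29 without CCT5. In CEL-seq2 (7.28) it was 26.6 from reads, which exist for 1 library, and 3.50 to 11.1 by library. In WT (65.0) it was 108 per kilobase and 11.7 without CCT5. In SCC4KO (27.9) it was 46.5 and 9.55. Leaving out a library gave 22.5 to 23.3 in LAST-seq.

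LAST-seq against CEL-seq2 called 2948 genes, 1077 to 2751 with a library left out, and 0 to 3 members in place of 1. By total UMIs the differences of TCP1 (-0.14) and CCT8 (-0.22) turned negative. With a library left out the differences ran from -0.24 to 0.74 for TCP1, -0.40 to 0.19 for CCT2, -1.51 to 0.50 for CCT5 and -0.015 to 0.25 for CCT8, so their signs depended on it. CCT3 was positive in all of these settings. No paired analysis was possible because the labels give LAST-seq and CEL-seq2 libraries no shared replicate numbers.

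SCC4KO over WT for the complex was -0.33 with TMM and -0.27 to -0.24 by batch. Past 2-fold were 1171 of 9782 genes. Models on batch sums called past 2-fold 1776 of 19249 genes by DESeq2, 1336 of 15057 by edgeR without a replicate block and 1651 with the replicate block. In each, 0 members were past 2-fold and 6 of 8 were called at any size, where 23.1%, 29.5% and 31.9% of genes were. These models compare batches of 1 sample each, not replicates of a genotype. Same-numbered batches are not shown to be paired. HEK293T over WT for the complex was -0.015 with TMM and 0.20 to 0.22 with a library or batch left out.

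The members' median excess CV2 on unscaled UMIs was 0.0755 in LAST-seq, 0.173 in CEL-seq2, 0.389 in WT and 0.0604 in SCC4KO. In cells of at least 100000 UMIs it was 0.0035, 0.0706 and 0.0102 in the first 3, where all genes had 0.0029, 0.114 and 0.0247, so in LAST-seq the members went from below all genes (0.0027 against 0.0049) to above them. It was 0.0085 in SCC4KO with the batches together. The median rho in WT was -0.0076 by Pearson, -0.003 with the batches together and 0.566 unscaled, and in SCC4KO -0.0009 with the batches together, 0.0364 in cells of at least 100000 UMIs, -0.0112 thinned to 100000 UMIs and 0.446 unscaled. Reads per UMI in LAST-seq had a members' median of 4.29 over wells. The causes were not tested.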

Other observations

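CCT6A, CCT3 and CCT2 led in CEL-seq2 lysate with 19.3%, 17.1% and 16.5% of the members' UMIs, and CCT5 was last with 2.22%. In LAST-seq lysate CCT3 led with 46.1% and CCT5 was last with 1.73%. TUBB, a main client of the complex, had 1 UMI in the 20 LAST-seq HEK293T cells (0.34 CPM) and 1249 in the WT cells (63.5 CPM). TUBA1B, another tubulin gene of the client list, had 0 UMIs in WT and 2 in SCC4KO. Whether the counting missed reads of these genes was not tested, so the low counts do not show that the mRNAs were absent.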
